A study of Mus musculus with 3 samples.

Results

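A set of 9 genes for endothelial transcription factors was followed through the cells of the mouse retina at 3 ages. They were taken by symbol from the 32285 genes in the deposited matrices, and all 9 members were found: the SOXF genes Sox7, Sox17 and Sox18, the SOXC gene Sox4, the ETS genes Erg, Fli1, Ets1 and Ets2, and the ternary complex factor gene Elk3. The retinas came from C57BL/6JRj mice, the Young group at 3 months, the Adult group at 12 months and the Old group at 23 months. Each age was 1 single-cell library, made from the pooled retinas of 2 mice after enrichment for CD31 (PECAM1), a protein of the endothelial surface. With 1 library per age, a difference between ages cannot be told apart from a difference between libraries or pools of mice, and no test between ages was possible.

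SOX and ETS factors bind DNA through an HMG box and an ETS domain, respectively. The SOXF factors act in vessel growth and in arterial identity downstream of VEGF and alongside Notch signalling, while ERG and FLI1 maintain endothelial identity by activating genes such as Cdh5, which encodes VE-cadherin. ETS1 and ETS2 are effectors of RAS and MAP kinase signalling, SOX4 is a factor of progenitor cells and of developing neurons, and ELK3 binds with serum response factor and represses its targets until it is phosphorylated.

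The genes are spread over 7 chromosomes of the mouse genome (GRCm38). Sox4 lies at chr13:28948919-28953713, Sox7 at chr14:63943673-63950732, Sox17 at chr1:4490931-4497354, Sox18 at chr2:181669836-181671640 and Elk3 at chr10:93247414-93311135. The 4 ETS genes form neighbouring pairs. Fli1 at chr9:32422204-32542861 and Ets1 at chr9:32636221-32757820 are 93.4 kb apart, and Erg at chr16:95359169-95586593 and Ets2 at chr16:95702075-95721051 are 115.5 kb apart, with 0 protein-coding genes between the members of either pair. Inside the bounds of Fli1, 5 other annotated loci lie on the same strand, so the Fli1 counts are uncertain to that extent. For the other members 0 genes overlap on the same strand, and Elk3 overlaps the protein-coding gene Cdk17 on the opposite strand.

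RefSeq promoter windows, 250 bases before the start of transcription, were held for 4 of the 9 members (Sox4, Erg, Ets2 and Elk3). Sox7, Sox17, Sox18, Fli1 and Ets1 had no entry. The windows below are those of Sox4, the gene that differed most between ages, of Erg, which stood far above the other classes in endothelial cells, and of Elk3, which was also found in cones. Each is written 5′ to 3′ on the strand of the gene, from GRCm38.p6, and stops before the first annotated transcribed base. Sox4 (chr13:28953714-28953949, minus strand), Erg at its outermost start (chr16:95586594-95586843, minus strand) and Elk3 (chr10:93311160-93311409, minus strand) read:
Sox4: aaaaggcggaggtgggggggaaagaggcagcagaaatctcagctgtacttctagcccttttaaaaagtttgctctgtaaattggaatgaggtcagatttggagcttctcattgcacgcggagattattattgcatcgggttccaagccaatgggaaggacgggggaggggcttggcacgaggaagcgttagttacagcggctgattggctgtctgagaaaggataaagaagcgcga
Erg: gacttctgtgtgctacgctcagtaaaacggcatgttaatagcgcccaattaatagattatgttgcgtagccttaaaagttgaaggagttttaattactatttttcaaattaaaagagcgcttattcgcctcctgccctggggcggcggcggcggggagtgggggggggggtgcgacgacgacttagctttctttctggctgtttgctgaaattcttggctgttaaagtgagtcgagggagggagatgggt
Elk3: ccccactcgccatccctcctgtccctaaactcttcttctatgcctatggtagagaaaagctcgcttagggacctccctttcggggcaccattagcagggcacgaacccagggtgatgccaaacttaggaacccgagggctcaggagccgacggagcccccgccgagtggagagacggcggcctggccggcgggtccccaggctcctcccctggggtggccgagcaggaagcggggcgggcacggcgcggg
A pair of letter strings was searched on both strands, CCGGAA for ETS factors and ACAAT for SOX factors, and matches would be in capitals. Neither string is in the 3 stretches shown. Of the 2 further Erg start sites with a window, that at chr16:95459349-95459598 held ACAAT in 1 place. Among 32817 promoter windows of the same length, 12.0% held CCGGAA and 27.7% held ACAAT. The Elk3 window had 67.2% G and C and the Erg window 48.8%.

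The 3 libraries held 16577026 to 19977238 unique molecular identifiers (UMIs), each standing for 1 captured RNA molecule. After limits on genes and mitochondrial RNA and removal of 37 called doublets, 5363 cells were kept, 1705 Young, 1957 Adult and 1701 Old, with a median of 5964 to 6353 UMIs per cell. The Adult and Old libraries shared 2 cell barcodes. Cells were clustered without the 9 genes and named by fixed markers. The endothelial class held 442 Young, 433 Adult and 403 Old cells, and all 10 endothelial markers were detected in it in each library, at a summed 16400 to 17400 CPM (UMIs per 1000000 UMIs of the class). Pericyte markers were present in the same cells at a summed 2070 (Young), 2040 (Adult) and 1320 (Old) CPM, against 33900 to 36100 in pericytes. Endothelial markers reached 971 to 1280 CPM in pericytes. All levels are given in CPM, and intervals are 95% and cover counting error only.

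Of the 9 members, 7 had their highest mean level in endothelial cells among the 7 classes that held 30 or more cells in every library. The classes come from clusters of the same cells, so these levels are described without a test. No share over all genes is set beside this count or those of the gene lists below, so they are descriptions only. The SOXF genes were the most confined. Sox17 was at 598 CPM in Young, 620 in Adult and 612 in Old endothelial cells, a mean of 610 ± 11.4 (SD, n = 3 libraries). Its next class was the pericytes, at 15.7, 7.20 and 36.5. The endothelial mean was thus 30.8 times that of pericytes, with ratios of 38.0, 86.2 and 16.8 in the Young, Adult and Old libraries, whose pericytes held only 4 to 18 Sox17 UMIs.

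Sox18, the SOXF gene known for lymphatic and vascular development, was at 410, 450 and 496 CPM in Young, Adult and Old endothelial cells. In pericytes it was at 4.29, 21.6 and 18.3, so that the endothelial mean of 452 ± 43.1 was 30.7 times higher. Sox7 was at 64.0, 73.5 and 70.0 in endothelial cells and at 1.80 to 6.08 in pericytes. The endothelial range lay above the pericyte range for each of the 3 SOXF genes, whereas the ranges of the lower classes overlapped. No Sox7 UMI was found in Müller glia, rods or cones of any library, and 3 UMIs, the limit that a count of 0 allows, correspond to 1.54 to 1.91 CPM in the Müller glia of a single library.

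Erg and Fli1, the ETS genes of endothelial identity, came next. Erg was at 145, 154 and 149 CPM in Young, Adult and Old endothelial cells and at 11.4, 19.8 and 24.3 in pericytes. Fli1 was at 311, 330 and 329 in endothelial cells and at 18.6, 21.6 and 40.6 in pericytes. The mean endothelial level was 8.06 times (Erg) and 12.0 times (Fli1) that of pericytes, and the ranges did not overlap. Neither gene had a UMI in rods in any library. In all 5 genes the pericytes were the next of these 7 classes, and the part that endothelial RNA in those droplets plays in these levels was not tested.

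Ets1 was shared by endothelial cells and pericytes. Its levels were 452, 436 and 394 CPM in Young, Adult and Old endothelial cells, 322, 333 and 331 in pericytes and 114, 116 and 111 in smooth muscle cells. The 3 ranges were separate, yet endothelial cells exceeded pericytes by only 1.30 times. A UMI of Ets1 was found in 63.5%, 63.8% and 63.7% of Young, Adult and Old pericytes. The neighbouring gene Fli1 was found in 6.47%, 9.23% and 11.8% of the same pericytes, and Ets1 in 0%, 0.312% and 1.27% of rods, at median depths of 3980, 3927 and 4645 UMIs in pericytes and 2287, 2423 and 2144 in rods. At 2000 UMIs per cell the Ets1 shares were 44.7%, 47.2% and 50.6% in pericytes and 0% to 0.704% in rods.

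Ets2 was highest in smooth muscle cells, at 153 (Young), 158 (Adult) and 150 (Old) CPM. Endothelial cells held 122, 118 and 111, and the ranges did not overlap. The smooth muscle values rest on 47 to 54 UMIs in 37 to 38 cells per library, and their counting intervals overlapped those of endothelial cells in each library. The neighbouring gene Erg, by contrast, was at 6.08 to 13.9 CPM in smooth muscle cells.

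Elk3 was highest in endothelial cells and was found at lower levels in pericytes, cones, smooth muscle cells and Müller glia. It was at 197, 201 and 195 CPM in Young, Adult and Old endothelial cells and at 55.8 to 58.7 in pericytes. Cones followed with 46.8, 50.7 and 46.2 CPM, smooth muscle cells with 39.0, 45.6 and 30.6 (11 to 15 UMIs per library) and Müller glia with 17.5, 19.0 and 15.3. A UMI of Elk3 was found in 27.1% (95% Clopper-Pearson interval 17.2 to 39.1), 26.5% (18.2 to 36.1) and 27.8% (17.9 to 39.6) of Young, Adult and Old cones, and in 26.3%, 26.3% and 24.3% of smooth muscle cells. In rods, the other photoreceptors, Elk3 was at 2.01 to 9.83 CPM and in 0.602%, 0.623% and 2.53% of cells, at less depth (medians of 6613 to 7331 UMIs in cones and 2144 to 2423 in rods). With each cell thinned to 2000 UMIs, Elk3 was found in 10.1% of Young and 6.32% of Adult cones and in 0 of 68 Old cones (95% Clopper-Pearson interval 0 to 5.28%), and in rods in 0%, 0.463% and 0%.

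Sox4 did not mark the endothelium. Müller glia, the radial glia of the retina, held 85.2, 82.8 and 72.1 CPM in the Young, Adult and Old libraries. Endothelial cells held 92.9, 65.8 and 49.3, and pericytes 67.2, 91.8 and 42.6. The ranges of these 3 classes overlapped, so their order is not fixed by the data. Bipolar cells were lower, at 27.3 to 34.6, and no Sox4 UMI was found in rods.

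**Figure D1:**
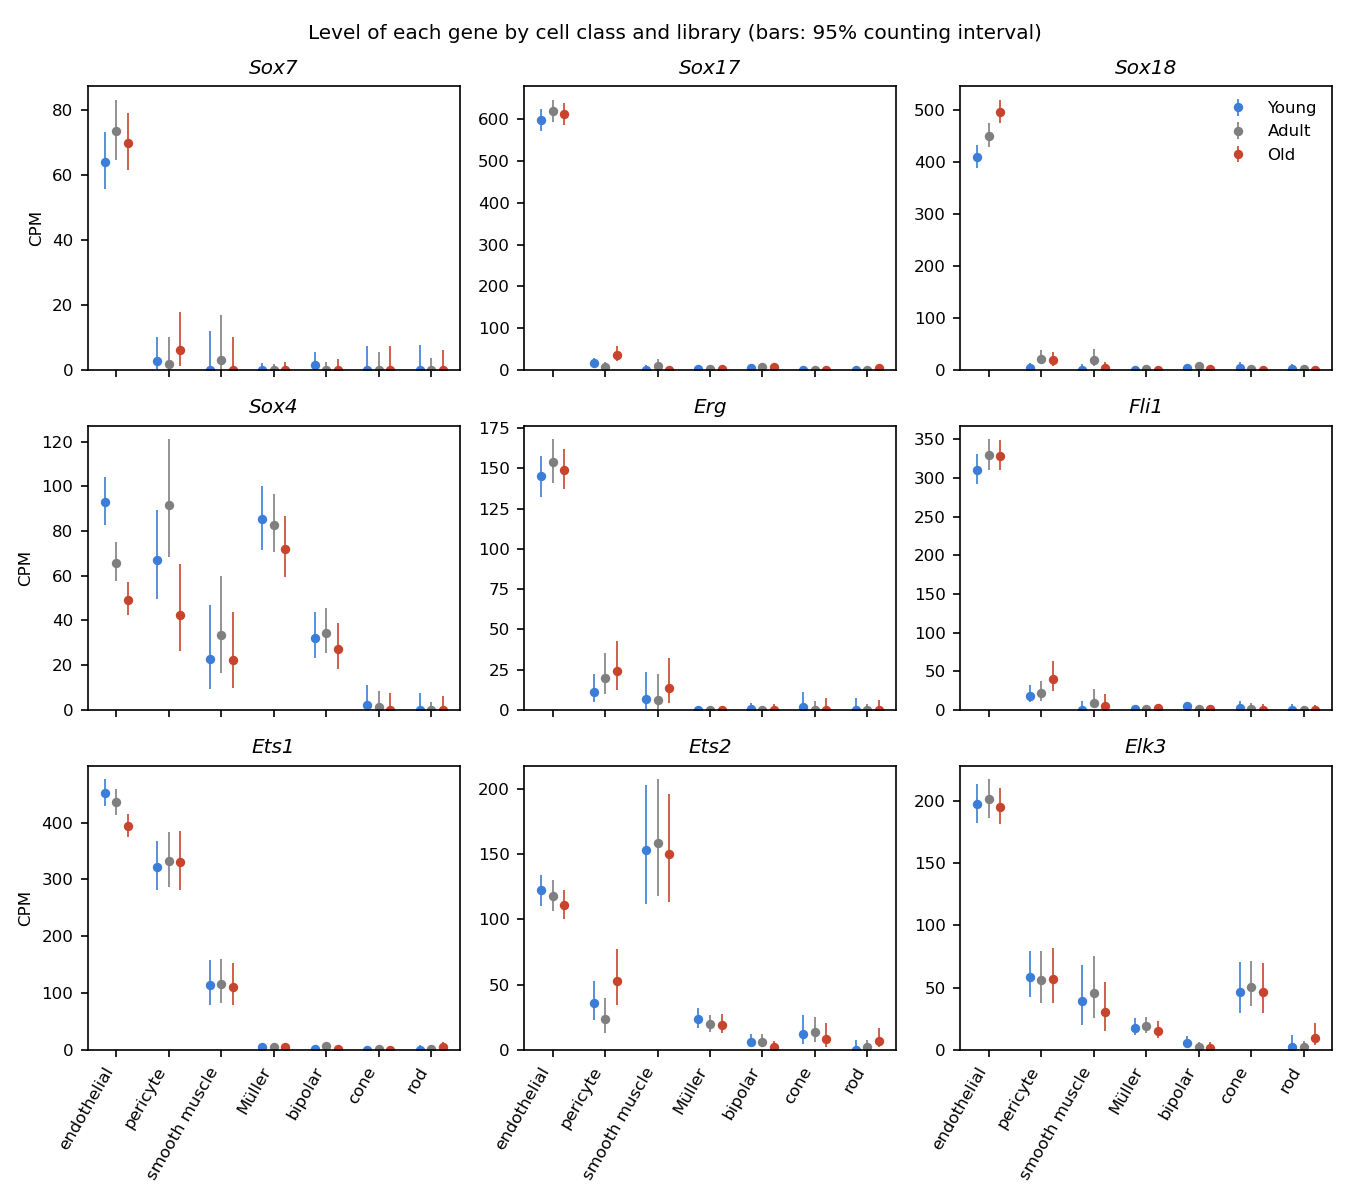
CPM of each gene (vertical axes, linear, starting at 0) in 7 cell classes of the Young, Adult and Old libraries; points are libraries and bars are 95% counting intervals. Sox7, Sox17, Sox18, Erg and Fli1 stand high in endothelial cells alone. Ets1 is also high in pericytes and Ets2 in smooth muscle cells, and Elk3 is at 46.2 to 50.7 in cones. Sox4 is found in Müller glia, endothelial cells and pericytes, with overlapping ranges.

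A pair of small blood cell classes, with under 30 cells in at least 1 library, held Ets1 and Fli1 as well. In lymphoid cells Ets1, a factor of lymphocyte development, was at 443 CPM in Adult (77 cells) and 439 in Old (57 cells). Fli1 was at 130 and 118 in the same cells. The 10 Young lymphoid cells held 42 Ets1 and 19 Fli1 UMIs. Lymphoid cells held no Sox18 or Sox7 UMI in any library and 3 Sox17 UMIs, all in 1 Young cell. In microglia and macrophages, Ets1 ranged from 250 to 383 CPM over 9 to 29 cells. Over the 3 libraries these 52 cells also held 31 Sox17 UMIs in 5 cells (71.7 CPM), 14 Sox18 UMIs (32.4 CPM) and 11 Erg UMIs (25.4 CPM), above the pooled pericyte levels of 18.9, 13.7 and 17.7. Of these UMIs, 30, 13 and 10 were in the Adult library, where the same cells held a summed 2600 CPM of endothelial and 2950 CPM of pericyte markers. Their endothelial markers were at 270 in Young and 438 in Old, and their pericyte markers in these 2 libraries are not given here. By the rule that named the clusters, this cluster also held 3 lymphoid markers. The part of these markers' cells in the levels, that of Ets1 included, was not tested.

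The other genes of both families were read over the same classes. Of 15 other SOX genes, 7 had at least 50 UMIs in the 7 classes, and their highest mean was in Müller glia for 4, among them Sox9 (596 CPM) and Sox2 (410), factors of glial and progenitor cells. Only Sox13 was highest in endothelial cells, at 67.1, 75.0 and 77.1 in Young, Adult and Old. Of 21 other ETS genes, 10 had at least 50 UMIs, and 5 were highest in endothelial cells. Elf1 and Elf2, both at a mean of 110 CPM there, and Elk4 at 78.5 had pericytes as their next class. Etv1 was highest in pericytes, at 115. Of 25 genes known as targets of these factors or as part of the endothelial programme, 20 were highest in endothelial cells, including Cdh5 (526) and Cldn5 (5050), a tight junction protein. Kdr, the VEGF receptor 2, was highest in Müller glia (648 against 427 in endothelial cells). Cdh5, Cldn5, Kdr, Pecam1, Flt1, Egfl7 and Esam are also among the 10 markers used to name the endothelial class. Their levels there are not independent of that naming.

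The genes most like each member were sought by Pearson's r of log2(CPM + 1) over 24 sums, 8 classes in each of 3 libraries, among 6630 genes. The points share libraries and most of the spread is between classes, so r is a description. Sox17 was followed most closely by Ly6e (r = 0.989) and Ly6c1 (0.980), surface proteins of brain and retinal endothelium, and Sox18 by Paqr5 (0.979) and Tie1 (0.977), an endothelial receptor. Sox7 was closest to Gimap1 (0.989), Fli1 to Arap3 (0.979) and Erg to Abcb1a (0.976), an efflux transporter of the blood-retina barrier. Ets1 was closest to Tmem204 (0.992), Sox4 to Arhgap18 (0.974), Ets2 to Gpx1 (0.941) and Elk3 to Ctnna1 (0.930).

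Between ages, 1 member passed 1.5-fold in endothelial cells. Sox4 was at 92.9 CPM in Young (302 UMIs), 65.8 in Adult (222) and 49.3 in Old (179), with the 3 counting intervals apart. The Old over Young ratio was 0.531 (0.439 to 0.640) and the Adult over Young ratio 0.708 (0.593 to 0.845). In Old over Young, 3.06% of 8976 genes were at least 1.5-fold lower and 4.92% at least 1.5-fold higher, and of the 9 members 1 was lower and 0 were higher. In Adult over Young, 1.48% of 8868 genes were lower and 2.76% higher by that rule, and 0 members were in either direction. The share of endothelial cells with a Sox4 UMI was 36.4% in Young, 26.1% in Adult and 23.3% in Old, at median depths of 5641, 5979 and 7553 UMIs. Rods, at 2144 to 2423 UMIs, had none. With each cell thinned to 2000 UMIs, after 14 Young, 31 Adult and 5 Old cells below that depth were left out, the shares were 13.8% (10.7 to 17.4), 11.9% (8.94 to 15.5) and 8.29% (5.78 to 11.4), and the intervals of Young and Old overlapped.

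Sox4 was lower in Old than in Young in both arterial-marked and other endothelial cells. In arterial-marked cells, those with a UMI of at least 2 of 8 arterial markers, it was at 88.3, 52.1 and 46.3 CPM in Young, Adult and Old. The Old over Young ratio there was 0.525 (0.399 to 0.688), where 3.26% of genes were lower by the same rule, and Adult over Young was 0.590 (0.445 to 0.781), where 2.25% were. In the other endothelial cells it was at 96.6, 79.5 and 53.5, an Old over Young ratio of 0.554 (0.420 to 0.726) against 4.13% of genes lower. In the droplets with markers of both endothelial cells and pericytes, which were kept apart, it was at 83.9, 67.4 and 59.1, and the ratio of 0.704 (0.591 to 0.838) was short of 1.5-fold. Pericytes gave a ratio of 0.634 (0.360 to 1.08) on 21 to 51 UMIs per library, with 4.19% of genes lower. Their Adult level of 91.8 CPM was above the Young level of 67.2 (ratio 1.36, 0.900 to 2.07), and Old over Adult was 0.464 (0.265 to 0.785), against 4.82% of genes lower. Müller glia gave 0.846 (0.655 to 1.09), short of 1.5-fold, which 3.43% of genes passed downward. The Old over Young intervals of pericytes and Müller glia include 1, and differences in the ratio between classes were not tested.

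Other measures moved along with age in the endothelial cells. The summed pericyte markers were lowest in Old (above), and without the cells that carried at least 2 mural markers the Sox4 ratio was 0.499. That left 82 arterial-marked and 155 other endothelial cells in Young and 113 and 111 in Old. Summed markers of other cells differed as well. Those of erythroid cells were at 556, 199 and 1400 CPM in Young, Adult and Old, those of Müller glia at 1160, 1360 and 1630, those of rods at 62.8, 110 and 138 and those of cones at 43.7, 65.5 and 79.3. The summed arterial markers were at 554, 588 and 782. Of 12 genes induced by tissue dissociation, 3 were at least 1.5-fold lower in Old, the heat shock genes Hspa1b (ratio 0.30) and Hspa1a (0.59) and the immediate early gene Fosb (0.51), while the list's sum was 9370, 9470 and 8760 CPM in Young, Adult and Old. Their part in the Sox4 difference was not tested.

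Sox18 and Ets1 differed less and in opposite directions. Sox18 was at 410 CPM in Young, 450 in Adult and 496 in Old, an Old over Young ratio of 1.21 (1.13 to 1.30). Ets1 was at 452, 436 and 394, a ratio of 0.871 (0.810 to 0.938). Over all endothelial cells both intervals exclude 1 but both ratios are below the 1.5-fold rule. Arterial-marked cells, in which Sox18 was higher, made up 165 of 442 endothelial cells in Young and 203 of 403 in Old. The droplets with markers of both endothelial cells and pericytes, outside these counts, included an arterial-led cluster of 69 Young and 39 Old. The Sox18 ratio was 1.13 (1.03 to 1.25) within arterial-marked cells, 1.18 (1.06 to 1.32) within the others and 1.14 (0.983 to 1.32) within an endothelial cluster led by arterial genes. That of Ets1 was 0.867 (0.779 to 0.964) and 0.906 (0.816 to 1.01) within arterial-marked and other cells. For Sox17, Fli1, Erg, Elk3, Ets2 and Sox7 the Old over Young intervals over all endothelial cells included 1, and together they reached from 0.791 (Ets2, lower bound) to 1.32 (Sox7, upper bound). Within subsets, Fli1 was at 1.17 (1.04 to 1.33) in arterial-marked and 0.977 (0.866 to 1.10) in other cells, and Elk3 at 1.16 (0.990 to 1.35) and 0.833 (0.709 to 0.978). These intervals do not cover differences between mice.

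The other genes of the lists were called by the same rule. None of 8 other ETS genes and none of 18 other endothelial transcription factors tested passed 1.5-fold in Old over Young endothelial cells. Of 3 other SOX genes tested, Sox12 was lower (ratio 0.66), and in Adult over Young Sox9 was higher (ratio 1.52). Of 24 target genes tested, only Plvap, a protein of fenestrated endothelium, passed the rule (ratio 0.06). It rested on few cells, since 86 of the 87 Young UMIs were in 1 cell and the Adult UMIs, 47 and 10, in 2 cells. In the other endothelial cells, where 4.52% of genes were higher and 4.13% lower in Old over Young, 2 of 7 other ETS genes were lower (Elk4 at 0.664 and Etv6 at 0.665), and of 18 other endothelial transcription factors Tal1 (0.660) and Foxo1 (0.662) were lower and Hhex (1.77) was higher. In arterial-marked cells no other SOX, ETS or endothelial transcription factor gene tested passed the rule in Old over Young, while in Adult over Young Etv3 was lower (0.593) and Sox9 (1.61) and Lyl1 (1.59) were higher, where 3.48% of genes were higher. Over all endothelial cells, Old over Young, the median log2 ratio was 0.03 over the members and 0.02 over all genes tested.

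**Figure D2:**
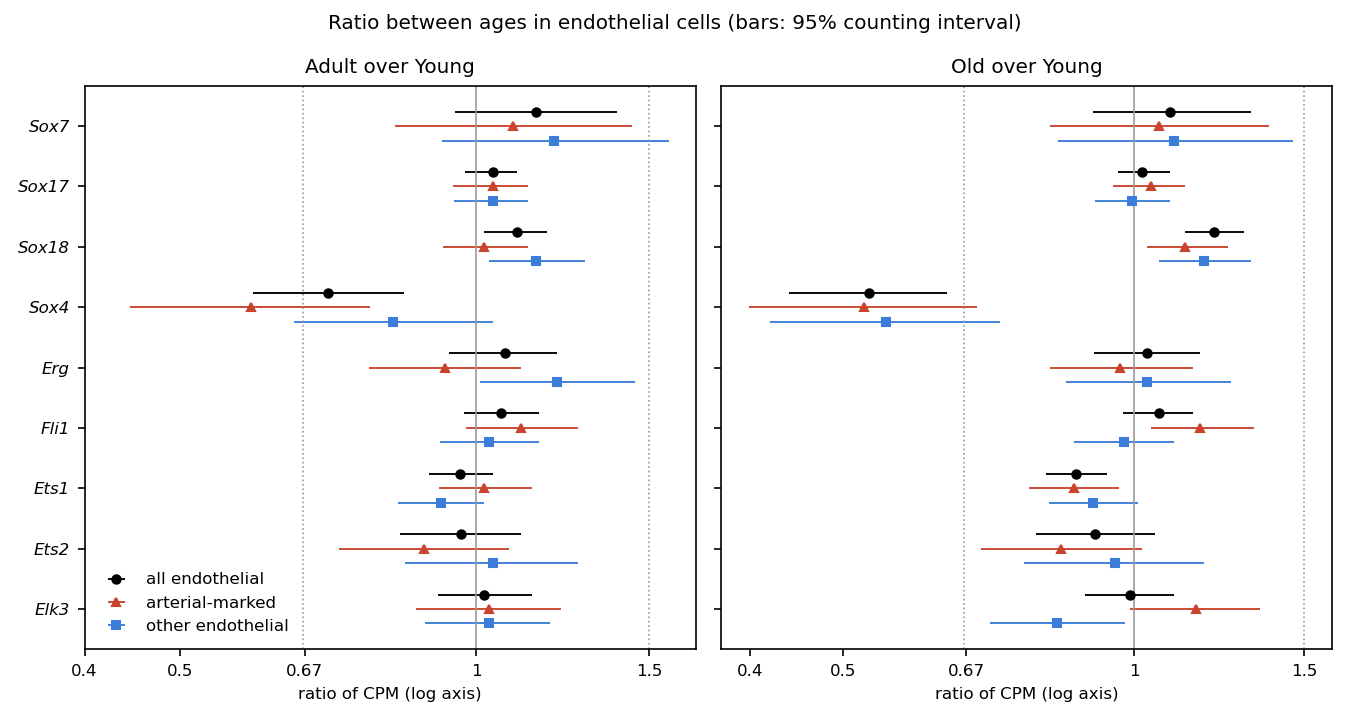
Ratios of CPM, Adult over Young (left) and Old over Young (right), for each gene on a log axis, in all endothelial, arterial-marked and other endothelial cells; bars are 95% counting intervals and dotted lines mark 1.5-fold. Sox4 lies to the left at 0.531, 0.525 and 0.554 in Old over Young, and the other genes lie near 1.

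The arterial comparison had 3 libraries as replicates. SOXF factors and ETS factors are known to act on arterial genes, and the members were compared between arterial-marked cells (165 Young, 173 Adult and 203 Old) and the other endothelial cells (277, 260 and 200) with edgeR's quasi-likelihood test, keeping the library as a block. No member is among the 8 arterial markers, and the markers were left out of the counts. Of 9512 genes tested, 5.26% were higher and 4.36% lower in arterial-marked cells at an adjusted p under 0.05. Of the 9 members, 1 was higher and 0 were lower by edgeR, and DESeq2 also gave 1 and 0. At an unadjusted p under 0.05, edgeR had 2 members higher and 3 lower, against 10.3% and 10.1% of all genes tested, and DESeq2 had 1 and 0, against 4.01% and 3.07%. Arterial-marked cells were deeper, with medians of 6934, 7613 and 9241 UMIs against 5214, 5011 and 6361, and the gate on markers depends on depth.

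Sox18 was the gene that passed. It was at 492 CPM in arterial-marked and 345 in other cells of the Young library, at 503 and 398 in the Adult and at 558 and 408 in the Old library. The arterial-marked value was higher in 3 of 3 libraries and the lowest of them exceeded the highest of the others. The log2 fold change was 0.39 (SE 0.06, adjusted p = 9.665e-06). The level followed the number of arterial markers in a cell, from 333 to 402 CPM over the libraries with 0 markers to 558 to 653 with 4 or more. With cells thinned to 2000 UMIs, the log2 fold change was 0.40 (adjusted p = 0.022).

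Sox17 did not separate the 2 kinds of cell. It was at 608 and 590 CPM in arterial-marked and other cells of the Young library, 630 and 611 in the Adult and 630 and 588 in the Old library. The log2 fold change was 0.02 (SE 0.05, adjusted p = 0.872). Sox7 gave 0.03 (SE 0.11, adjusted p = 0.928), and the difference between these genes and Sox18 was not tested.

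Erg was at 167 and 127 CPM in arterial-marked and other cells of the Young library, 155 and 153 in the Adult and 161 and 131 in the Old library. Its log2 fold change of 0.19 (SE 0.09, adjusted p = 0.186) did not pass. With at least 3 markers required, it was 0.37 (adjusted p = 0.00514), and this gate alone brought Erg past the threshold. Sox4 was lower in arterial-marked cells in 3 of 3 libraries, at 88.3 against 96.6, 52.1 against 79.5 and 46.3 against 53.5, with a log2 fold change of -0.34 (SE 0.11, adjusted p = 0.0516). It passed with at least 3 markers (-0.54, adjusted p = 0.0103) and without the Young library (-0.46, adjusted p = 0.0281), but its direction turned with at least 1 marker (0.0893, adjusted p = 0.837), and it was -0.20 without the Adult library (adjusted p = 0.519). Ets1 (-0.15, SE 0.06), Fli1 (-0.14, SE 0.07), Ets2 (0.16, SE 0.09) and Elk3 (-0.09, SE 0.09) did not pass, at adjusted p = 0.129, 0.211, 0.344 and 0.645.

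**Figure D3:**
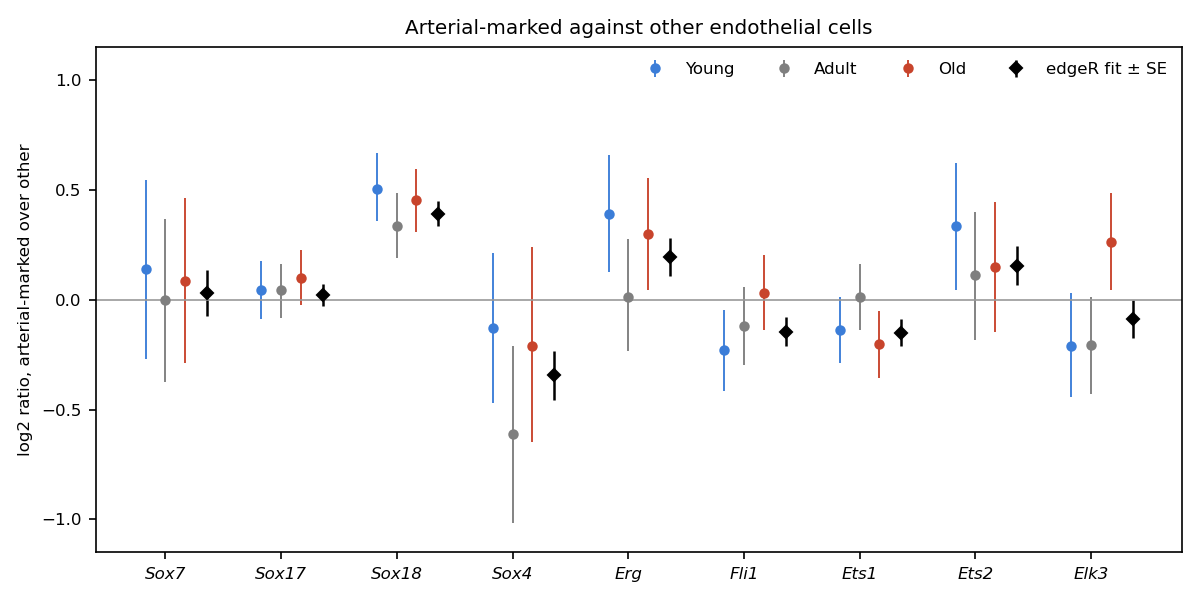
Log2 ratio of arterial-marked over other endothelial cells for each gene in the Young, Adult and Old libraries, with 95% counting intervals, and the edgeR log2 fold change with its SE (black). Sox18 is above 0 in each library (fit 0.39), Sox17 is at 0.02 and Sox4 at -0.34.

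Target genes and Notch pathway genes were read in the same fit. Of 24 target genes tested, 10 were higher and 3 lower in arterial-marked cells by edgeR, against 5.26% and 4.36% of all genes, and 4 were higher and 2 lower by DESeq2, which called 165 and 135 of all 9512 genes. The median log2 fold change of the target genes was 0.15 against -0.01 over all genes. Dll4, the Notch ligand of arteries, gave 1.27 (SE 0.12), Notch4 0.79 (SE 0.12) and Notch1 0.57 (SE 0.08), with adjusted p = 3.673e-09, 1.92e-05 and 5.791e-06. Plvap gave 3.88 (SE 0.45, adjusted p = 2.421e-07), carried by the few cells named above. Of 18 other endothelial transcription factors, Epas1 (0.43), Gata2 (0.40) and Mecom (0.24) were higher and Lef1 (-0.20), the effector of Wnt signalling, was lower by edgeR, and DESeq2 called 1 higher and 0 lower (3 and 1 at an unadjusted p under 0.05). Sox13 (0.41, adjusted p = 0.01154) was the 1 of 3 other SOX genes that passed by edgeR, whereas DESeq2 called 0 of the 3, also at an unadjusted p under 0.05. The other 2, Sox12 (-0.73) and Sox9 (-0.57), were lower by edgeR at an unadjusted p under 0.05 only. Of 8 other ETS genes 0 passed by edgeR or by DESeq2, with 1, Elk4, at an unadjusted p under 0.05 by edgeR and 0 by DESeq2.

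The 8 arterial markers of the gate were also found in mural cells, at a summed 326 to 436 CPM in pericytes and 359 to 441 in smooth muscle cells. In all endothelial cells they were at 554 to 782. Markers of other cell types moved with the arterial split. Of 5 smooth muscle markers tested, 4 were higher in arterial-marked cells, with a log2 fold change of 2.97 for Acta2 and 2.90 for Tagln. Their summed level was 131, 134 and 123 CPM in arterial-marked against 77.3, 88.5 and 68.3 in other cells, and Cnn1 and Actg2 were at 0 in both. Summed Müller markers were also higher, at 1520 to 1960 against 864 to 1140. Of 8 pericyte markers 3 were lower. Their summed level was 1790 against 2290 CPM in the Young and 1110 against 1620 in the Old library, but 2150 against 1930 in the Adult. Summed erythroid markers were at 757 CPM in arterial-marked against 397 in other cells of the Young library, 49.8 against 348 in the Adult and 2320 against 79.0 in the Old library. Of the 12 dissociation genes 3 were higher and 3 lower, among them Nr4a1 (log2 fold change 0.83), Hspa1b (-1.03) and Hspa1a (-0.69). The part of the erythroid and dissociation genes in the members' differences was not tested. Without the cells that carried at least 2 mural markers, Sox18 kept a log2 fold change of 0.44 (adjusted p = 0.000159), and Sox4 was at -0.19 (adjusted p = 0.635). That setting left 82, 84 and 113 arterial-marked and 155, 139 and 111 other cells in Young, Adult and Old.

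A separate cluster of 48 Young, 57 Adult and 79 Old endothelial cells was led by the arterial genes Gkn3, Sema3g and Vegfc. A further cluster of 69 Young, 63 Adult and 39 Old droplets with markers of both endothelial cells and pericytes was led by them too. Those droplets were kept apart and are in neither the endothelial cluster nor the main arterial comparison. Clusters were made without the members, and the values are given without a test. Sox18 was at 594, 643 and 676 CPM in the endothelial cluster and at 380, 416 and 446 in the endothelial cells outside it. Sox4 was at 75.6, 51.5 and 29.2 inside and 95.8, 68.4 and 54.9 outside. Fli1 was lower inside in each library, at 255, 214 and 306 against 320, 350 and 336. Ets1 was lower too, at 393, 358 and 341 against 462, 450 and 409. Ets2 was at 108, 111 and 86.3 inside and 124, 119 and 118 outside, lower in each library, whereas between arterial-marked and other cells it was higher in each, at 138 against 109, 122 against 113 and 116 against 104. Sox17 was at 549 inside and 606 outside in the Young library, but at 736 and 600 in the Adult and 739 and 577 in the Old library. Erg was higher inside in each library, at 190, 170 and 175 against 137, 151 and 142. Elk3 was lower inside in each, at 188, 162 and 188 against 199, 208 and 197. Sox7 was at 77.7, 75.2 and 62.2 inside and 61.7, 73.2 and 72.1 outside.

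**Figure D4:**
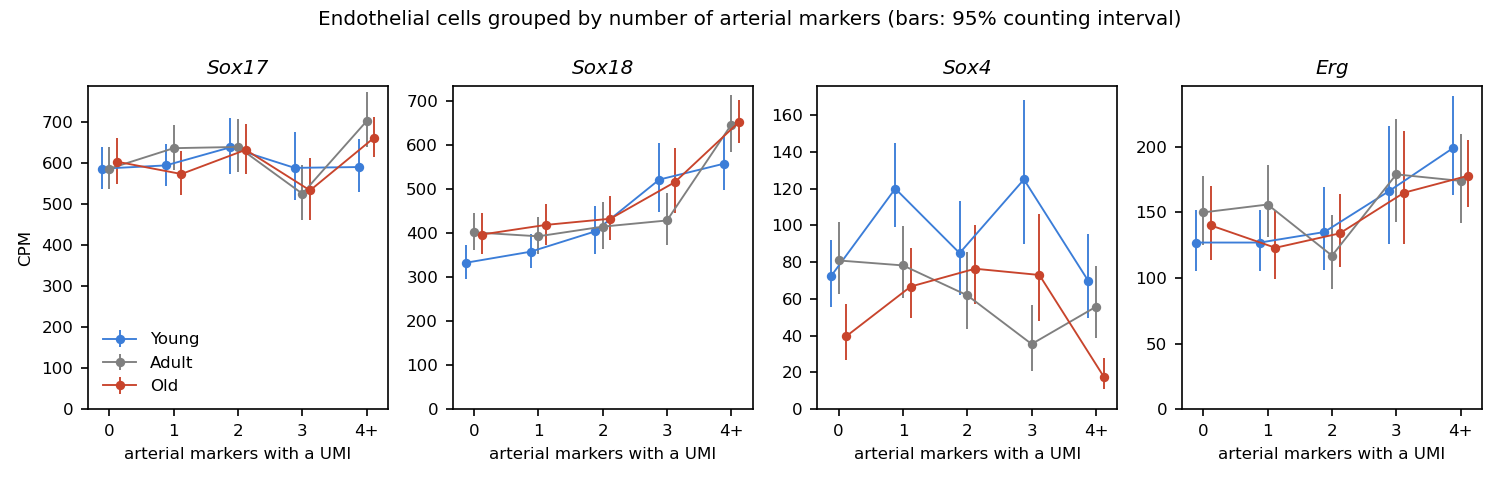
CPM of Sox17, Sox18, Sox4 and Erg (vertical axes from 0) in endothelial cells with UMIs of 0, 1, 2, 3 or at least 4 of the 8 arterial markers, by library, with 95% counting intervals. Sox18 goes from 333 to 402 with 0 markers to 558 to 653 with 4 or more, and Sox17 stays between 525 and 702.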

How the data were processed

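Retinal cells enriched with CD31 beads were profiled in 3 10x Genomics libraries, 1 for each age. The authors aligned the reads to mm10 and counted them with Cell Ranger 6.1.2, per the labels, and the deposited files hold raw UMI counts for each gene and cell. All other values were computed here.

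Barcodes with 500 to 6000 genes and 1 to 20% mitochondrial counts were kept (8485 barcodes, 5400 within the limits), and Scrublet (scanpy 1.11.5) called 37 doublets (0.685%), which stayed in the clustering and were then left out. Libraries were integrated in Seurat 5.3.0 (canonical correlation, 2000 features without the members and the other SOX and ETS genes, 30 components, resolution 0.5). A cluster was named from at least 3 of its fixed markers and its 10 leading genes. After the clusters were seen, the leading genes were taken against all other cells pooled in place of the median cluster, which left 1 low-UMI cluster (66, 69 and 89 cells) unnamed, and mixed names were resolved for a Müller and a smooth muscle cluster. Droplets with markers of both endothelial cells and pericytes (310, 251 and 225) were kept apart.

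Counts were summed per class and library and scaled to 1000000 counts (CPM). Intervals are exact (Poisson, Clopper-Pearson, or conditional for a ratio). Genes with at least 50 UMIs over the 2 libraries compared were called at 1.5-fold. The arterial comparison used edgeR 4.0.16 (quasi-likelihood, TMM, library as a block, Benjamini-Hochberg), with the SE taken as the size of the fold change over the square root of F, and was tested on simulated data; DESeq2 1.42.0 was an alternative. Both sums of a library come from the same cells' suspension, which the block takes up, and the libraries differ in age.

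The text names the 9 members, from each list up to 4 genes past the rule with the largest change, and the genes most like each member; examples of list genes by class and markers were chosen after their values were seen. Members and lists were chosen with earlier results of these data known. Of 32285 gene identifiers, 32158 matched GENCODE M21.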

Additional observations from a re-analysis of the deposited data

Results flagged for a closer look

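Sox17 had Old over Young ratios on opposite sides of 1, with intervals that exclude 1, in 3 of the subsets of endothelial cells read. In the arterial cluster it was at 739 CPM in Old and 549 in Young, a ratio of 1.35 (95% interval 1.16 to 1.57). In venous-marked cells, those with fewer than 2 arterial and at least 2 of 7 venous markers, it was at 596 and 522, a ratio of 1.14 (1.01 to 1.30). In the remaining cells, with fewer than 2 markers of either set, it was at 577 and 664, a ratio of 0.870 (0.763 to 0.991). The other sets gave intervals that include 1, with a ratio of 1.02 (0.963 to 1.09) over all endothelial cells, 1.04 (0.951 to 1.13) in arterial-marked cells, 0.996 (0.910 to 1.09) in other endothelial cells and 0.953 (0.890 to 1.02) outside the arterial cluster. The subsets overlap, since the cluster and the marker gates divide the same cells. The difference between the subsets was not tested, since each age is 1 library, and the intervals cover counting error only. The arterial cluster rests on 48 Young and 79 Old cells, in which summed erythroid markers were at 4.32 CPM in Young and 4350 in Old and summed pericyte markers at 1280 and 452. Their part in the ratio was not tested. A minimum of 50 UMIs over the pair of libraries was set on such ratios after the data were seen. The low counts it left out include further ratios whose intervals exclude 1, among them, in pericytes, Sox17 in Old over Young (2.32, 1.04 to 5.44) and Old over Adult (5.07, 1.67 to 20.6), Sox18 in Old over Young (4.25, 1.06 to 24.4) and Adult over Young (5.03, 1.36 to 27.8), Fli1 in Old over Young (2.18, 1.03 to 4.77) and Ets2 in Old over Adult (2.25, 1.12 to 4.78). In smooth muscle cells Sox18 had 6 UMIs in Adult and 0 in Young. The minimum also left out Sox18 in bipolar cells, at 1.82 CPM in Old (2 UMIs) and 8.47 in Adult (12 UMIs), a ratio of 0.215 (0.0233 to 0.964).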

How the results depend on the processing

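For the arterial comparison, the counts of higher and lower genes (500 and 415) were 165 and 135 with DESeq2, 239 and 97 with no replicate block, and 194 and 173 after thinning to 2000 UMIs. With each cell classed by its own markers 837 genes were higher. The replicate here is the library, and Sox18 passed with the block and without it (adjusted p = 0.0219). Sox18 kept its direction and its call under all alternatives run (log2 fold change 0.286 to 0.504). The members higher became 2 with a gate of at least 3 markers (Erg). The members lower, 0 by the main design, became 1 with that gate and 1 after thinning (Sox4 both times), and 2 with cells classed by their own markers (Sox4 and Ets1); leaving out 1 library gave 0 to 1, the 1 being Sox4 without the Young library. Directions turned only in members that did not pass by the main design. With a gate of at least 1 marker the log2 fold change was 0.0893 for Sox4, -0.0781 for Sox7 and 0.0221 for Elk3. With at least 3 it was -0.177 for Sox7, -0.0209 for Sox17 and -0.0871 for Ets2. After thinning it was 0.0721 for Ets1 and -0.466 for Ets2, and with cells classed by their own markers -0.0552 for Sox7 and -0.0213 for Sox17. The causes were not tested.

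For age, the counts of members past 1.5-fold did not change under any alternative run, and the Old over Young ratio of Sox4 was 0.499 to 0.635. The count of 7 members highest in endothelial cells did not change either. Among the secondary results, 12 others moved under an alternative, and they are not listed here. The alternatives that add the low-UMI cluster or leave out the arterial cluster were chosen after seeing the data. Having 1 library per age and pools of 2 mice limit every age value.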
